A study of Mus musculus with 12 samples.

Results

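The transcriptome of Zar1/2-null mouse oocytes was followed through meiotic maturation, from the fully grown germinal vesicle (GV) stage to ovulated oocytes labelled MII. A gene was included when it had at least 1 FPKM in at least 1 of the 4 Zar1/2-null GV and MII libraries. This rule took 9455 of the 23230 genes in the table (40.7%). Each group had 2 libraries, and each library was made by Smart-seq2 from 10 pooled oocytes of the C57BL6/ICR hybrid strain. Zar1/2-null GV oocytes came from 21-day-old females 44 h after PMSG, the hormone that drives follicle growth. The Zar1/2-null MII oocytes were collected 16 h after hCG, which triggers ovulation, and the labels give no age for these females. The females were homozygous for CRISPR/Cas9 deletions in both Zar1 and Zar2, in all cells of the body and with no Cre or transgene, and WT oocytes of the same strain and stages served as the comparison. In the study's superovulation method PMSG was given 44 h before hCG, so the MII females had PMSG as well. No other treatment of these oocytes is described. The study describes arrest of many such ovulated oocytes within the first meiotic division. "MII" is therefore the label of these libraries, and cell cycle stage and genotype cannot be told apart in them. The sources do not say whether the 2 libraries of a group came from separate animals, so p-values measure the spread between these samples, which may be technical.

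A fully grown oocyte does not transcribe. It carries a store of maternal mRNA, and after meiotic resumption some of this store is translated while much of it is removed. Removal begins with the CCR4-NOT deadenylase, which the adaptor BTG4 brings to actively translated mRNAs, and the loss of the tail is followed by decapping and exonucleolytic decay. Messages that carry cytoplasmic polyadenylation elements (CPEs) near the polyadenylation signal can have their tails lengthened instead, through the CPE-binding protein CPEB1. ZAR1 and ZAR2 are RNA-binding proteins of the oocyte cytoplasm with a zinc finger domain. The question here was which transcripts were still cleared between GV and MII without them.

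Values were FPKM, a read count normalised to transcript length and library size, which the authors had multiplied by a factor from the ERCC spike-in, synthetic RNA of known amount in each lysis buffer. Recovered from the digits of the table, this factor was 0.533 and 0.583 in the Zar1/2-null GV libraries and 0.283 and 0.252 in the MII libraries. Log2 changes are MII minus GV on the log2(FPKM + 1) scale, tested with limma and Benjamini-Hochberg adjustment, and understate the change of low genes. Folds are ratios of group means with means under 1 FPKM set to 1. Smart-seq2 primes on the poly(A) tail, so loss of an RNA and shortening of its tail cannot be told apart here. With 2 libraries against 2, no exact permutation test can go below p = 0.333. No counts were available, so the depth behind single values is unknown. The target genes were listed in the null libraries: Zar2, under its symbol Zar1l (chr5:151309630-151320739, minus strand of mm9), had 20.9 and 19.6 FPKM at GV and 1.36 and 1.01 FPKM at MII. Zar1 (chr5:72968353-72972323, minus strand) had 136 and 203 FPKM at GV and 189.6 and 194 FPKM at MII. In WT GV oocytes Zar1l had 533 and 504 FPKM and Zar1 had 439 and 423 FPKM, so both were lower in the null at GV. Gene-level FPKM may come from parts outside the deletions, so these values do not check the deletions themselves. All 12 oocyte markers were members. The 16 granulosa and cumulus markers summed to 9.62 and 11.3 FPKM at GV and 7.34 and 6.17 FPKM at MII, with 4 and 7 of them listed at 0 at GV and 9 in each MII library. The 8 immune markers summed to at most 2.72 FPKM, the 8 oviduct epithelium markers to at most 1.44 FPKM and the 6 red cell markers to at most 0.0306 FPKM in any of the 4 libraries. The part of these cells in the results was not tested.

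Most of the measured transcriptome was lower at MII. In limma, 7132 of the 9455 genes fell (75.4%) and 21 rose (0.222%), and the counts of the gene lists are to be read against these shares. The median log2 change was -0.93, and 5% of the genes lay below -3.35 and 5% above -0.01. Both MII libraries lay below both GV libraries for 85.8% of the genes and above both for 1.07%. The summed FPKM dropped from 401824 and 421986 in the GV libraries to 209875 and 176380 in the MII libraries, 2.13-fold between the means. In WT oocytes the same sum dropped 4.24-fold, from 577185 and 480800 to 128281 and 121121.

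The sizes of these changes rest on the ERCC factors. Without them the median log2 change was -0.33, a shift of 0.60, and after scaling each library to an equal median it was 0.09, a shift of 1.02. Without the factors 4195 genes fell and 2122 rose, so that 33.6% of the calls were rises, and with median scaling 3184 fell and 3581 rose (52.9%). A set of 3183 genes was lower under all 3 scalings, and 21 were higher under all 3. Without the factors the sign of the change was the opposite for named transcripts with small falls, among them Wee2, Tpx2, Cnot6l, Zp2, Bmp15, Nlrp5, Padi6, Gapdh, Birc5, Rpl39, E330017A01Rik and Chchd2. A change between -0.93 and 0 is therefore a fall on the ERCC scale and a fall of less than the median gene's.

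Clearance by over 10-fold was found in 766 genes (8.1% of the members), and 3168 genes (33.5%) had a GV/MII ratio of means over 3. All 766 had more than 10 FPKM at GV, as the floor of 1 FPKM demands, and they made up 19.1% of the 4011 genes at that level. Of these 4011 genes, 1565 (39.0%) had a ratio under 2. The median fall of the 766 genes was 16.4-fold, and 216 had an MII mean that did not exceed 1 FPKM, where the fold is held down by the floor. limma called 752 of them lower, and the other 14 were small RNA genes, such as microRNA and small nucleolar RNA genes, whose replicates disagreed. Of the 766 genes, 194 passed 10-fold under all 3 scalings.

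**Figure D1:**
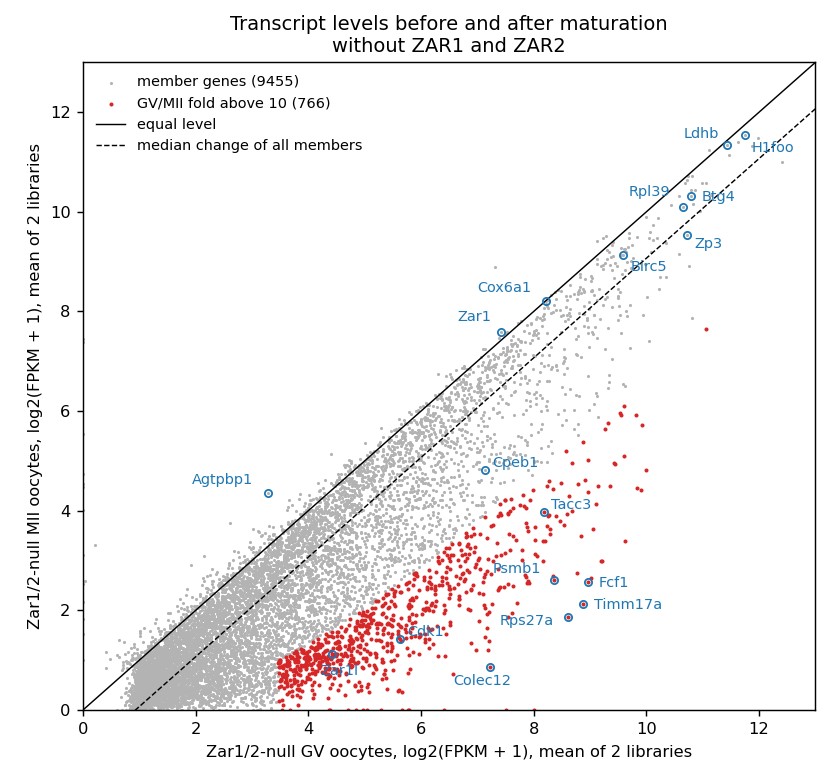
Mean level of each gene in Zar1/2-null GV oocytes (x axis) and MII oocytes (y axis), both as log2(FPKM + 1) over 2 libraries. Red points are the 766 genes that fell over 10-fold, the solid line marks equal levels and the dashed line the median change of -0.93. Named genes are circled: Rps27a, Timm17a and Fcf1 lie far below the line, and Ldhb, Cox6a1 and Zar1 on or next to it.

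The 10 largest falls among genes called lower, with at least 10 FPKM and no overlap between stages, are given first. Small RNA and Gm genes were left out. Rps27a, which encodes a ubiquitin fused to a small ribosomal subunit protein (chr11:29445846-29448109, minus strand), had 441 and 340.2 FPKM in the GV libraries and 3.22 and 2.02 FPKM in the MII libraries (log2 change -6.77, standard error 0.21, adjusted p = 1.37e-09). Its mean fell 149-fold. Timm17a, a subunit of the protein import channel of the inner mitochondrial membrane (chr1:137198109-137210355, minus strand), had 490.2 and 448 FPKM at GV and 3.92 and 2.82 FPKM at MII (log2 change -6.76, standard error 0.16, adjusted p = 8.22e-10). Fcf1, which is needed to process the RNA of the small ribosomal subunit (chr12:86311847-86324253, plus strand), had 546 and 452 FPKM at GV and 6.26 and 3.63 FPKM at MII (log2 change -6.42, standard error 0.21, adjusted p = 1.9e-09). In all 3 genes the stages were far apart, and the MII replicates lay closer to each other than to any GV value.

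The other 7 had comparable patterns. Psmc2, an ATPase subunit of the proteasome, had 118 and 132 FPKM at GV and 1.66 and 0.946 FPKM at MII and fell 96.2-fold. Ndufb7, a subunit of respiratory complex I, had 166 and 127 FPKM at GV and 1.39 and 1.79 FPKM at MII, a fall of 92.2-fold. Bud31, a splicing factor, fell 97.8-fold and Ppil3, a cyclophilin found in spliceosomes, 112-fold. Rpl36al, a large ribosomal subunit protein, fell 83.0-fold. Colec12, a scavenger receptor, fell 148-fold and Intu, a planar polarity effector needed for cilia, 94.2-fold. The log2 change of each was -5.79 or lower. An adjusted p under 0.05 and MII libraries below both GV libraries were conditions of the choice, so they add no support.

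These 10 transcripts were also cleared in WT oocytes. Timm17a went from 564 ± 43.1 to 2.96 ± 0.200 FPKM (SD, n = 2 each) in WT and Psmc2 from 131 ± 32.8 to 0.670 ± 0.124 FPKM. For 7 of the 10, the difference of the change between genotypes did not pass an adjusted p of 0.05 in limma's interaction. It did not pass for 525 of the 766 genes cleared over 10-fold (68.5%) either. Over all members it passed with a smaller fall in the null for 36.6% and with a larger fall for 0.751%. The 10 were picked for their large falls in the null, so this count shows nothing particular to them. The values were 0.67 for Rps27a (adjusted p = 0.0949), 0.40 for Timm17a (adjusted p = 0.193) and -0.29 for Colec12 (adjusted p = 0.495), where a positive value means a smaller fall in Zar1/2-null oocytes. The 3 that passed were Fcf1, Ndufb7 and Rpl36al, with smaller falls in the null by 1.14, 0.84 and 1.04. An interaction that misses the threshold does not show that the falls were equal.

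The proteasome degrades ubiquitin-tagged proteins, and its genes were taken by their Psma to Psmd symbols. The 36 genes include Psmc3ip, a meiotic recombination factor that is no subunit, and assembly chaperones such as Psmd9 and Psmd10. Of the 36, 32 fell and none rose, beside falls in 75.4% of all members, and the median log2 change was -2.52 against -0.93. The ratio was over 10 for 14, beside 8.1% of all members and 19.1% of those above 10 FPKM at GV. It was between 3 and 10 for 11 and under 3 for 11. Without Psmc3ip, 31 of 35 fell and the median was -2.50. Psmb1, a core subunit, had 332 and 321 FPKM at GV and 6.73 and 3.41 FPKM at MII (log2 change -5.81, standard error 0.25, adjusted p = 6.86e-09). Leaving out Psmc3ip, the 20 genes with Psmc or Psmd symbols, named for the regulatory particle, had a median fall of 7.19-fold and the core (Psma and Psmb, 15 genes) of 5.72-fold. Psmd3, of the regulatory particle, stood apart with 11.9 and 17.1 FPKM at GV and 13.8 and 16.5 FPKM at MII (log2 change 0.07, adjusted p = 0.759), and its GV and MII libraries overlapped. Without the ERCC factors the list's median still differed from that of all members by -1.21 on the log2 scale.

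Transcripts of the ribosome were cleared unevenly. Among 82 cytoplasmic ribosomal protein genes, 71 fell, beside 75.4% of all members, with a median log2 change of -2.68. The ratio of means was over 10 for 29 genes, beside 8.1% of all members and 19.1% of those above 10 FPKM at GV. It was between 3 and 10 for 24 genes and under 3 for 29. In the last class the median fall was 1.65-fold in Zar1/2-null and 39.0-fold in WT oocytes, and in the first class 25.5-fold and 91.0-fold. The Rpl and Rps genes had medians of -2.76 and -2.59. Rpl39, of the large subunit, fell little, with 1810.2 and 1397 FPKM at GV and 1238 and 955 FPKM at MII (log2 change -0.55, standard error 0.20, adjusted p = 0.0324), while its WT mean went from 1771 ± 217 to 3.71 ± 0.0365 FPKM. Rps27 had 383 and 0.716 FPKM at GV and 132 and 98.4 FPKM at MII, so 1 of its GV libraries gave no usable level and no change is read from it. The 82 genes of the list, which leaves out Rpl36al, together made up 8.42% and 6.67% of the summed FPKM at GV and 5.77% and 5.44% at MII in Zar1/2-null oocytes, and 6.05% and 6.81% at GV and 1.08% and 1.02% at MII in WT oocytes. Many of these genes have processed pseudogenes, and the authors kept uniquely mapped reads, so their levels are uncertain.

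Mitochondrial ribosomal proteins, the CCT chaperonin and the genes with Eif symbols also had medians below that of all members. Of 76 mitochondrial ribosomal protein genes 72 fell (median -2.17), beside 75.4% of all members. They were led by Mrps22 with 194 and 198 FPKM at GV and 2.62 and 3.04 FPKM at MII (log2 change -5.69, adjusted p = 1.14e-09). Mrpl3 was the least changed, with 9.33 and 12.8 FPKM at GV and 10.3 and 9.04 FPKM at MII (log2 change -0.17, adjusted p = 0.409). All 8 CCT genes, which encode the chaperonin that folds actin and tubulin, fell (median -1.98), from -4.35 for Cct5 to -1.11 for Cct7. Of 52 genes with Eif symbols 42 fell and 1, the kinase gene Eif2ak3, rose (median -1.36). Most encode translation initiation factors, but the list also holds the eIF2 kinases, the argonaute genes Eif2c2 and Eif2c3 and the 4E-binding genes Eif4ebp1, Eif4ebp3 and Eif4enif1. Without these, 38 of 44 fell and the median was -1.42. Eif3g, a subunit of the scaffold eIF3, had 175 and 198 FPKM at GV and 5.48 and 4.09 FPKM at MII, a fall of 38.9-fold, and Eif4e3, a relative of the cap-binding protein, had 95.3 and 116 FPKM at GV and 103 and 93.4 FPKM at MII (log2 change -0.10, adjusted p = 0.589). The ratio was over 10 for 15 of the 52 genes, beside 8.1% of all members and 19.1% of those above 10 FPKM at GV. It was between 3 and 10 for 9 and under 3 for 28.

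Of 19 genes for actins, tubulins and the actin regulators Cfl1, Pfn1, Fmn2, Actr2 and Actr3, 15 fell, near the 75.4% of all members, with a median of -1.74. For the 14 actins and tubulins alone 11 fell and the median was -2.05. Tuba4a had 74.5 and 106 FPKM at GV and 2.72 and 1.77 FPKM at MII (log2 change -4.80, standard error 0.25, adjusted p = 2.52e-08), and Tubb4b went from a mean of 684 to 29.9 FPKM (log2 change -4.43, adjusted p = 8.82e-09). Tubg1, the γ-tubulin of microtubule-organising centres, had 13.8 and 21.7 FPKM at GV and 15 and 15.2 FPKM at MII (log2 change -0.19, adjusted p = 0.411). Actb, β-actin, fell, with a log2 change of -1.48 (adjusted p = 2.65e-05). With median scaling the log2 change of Actb was 0.03, so its direction rests on the scaling.

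**Figure D2:**
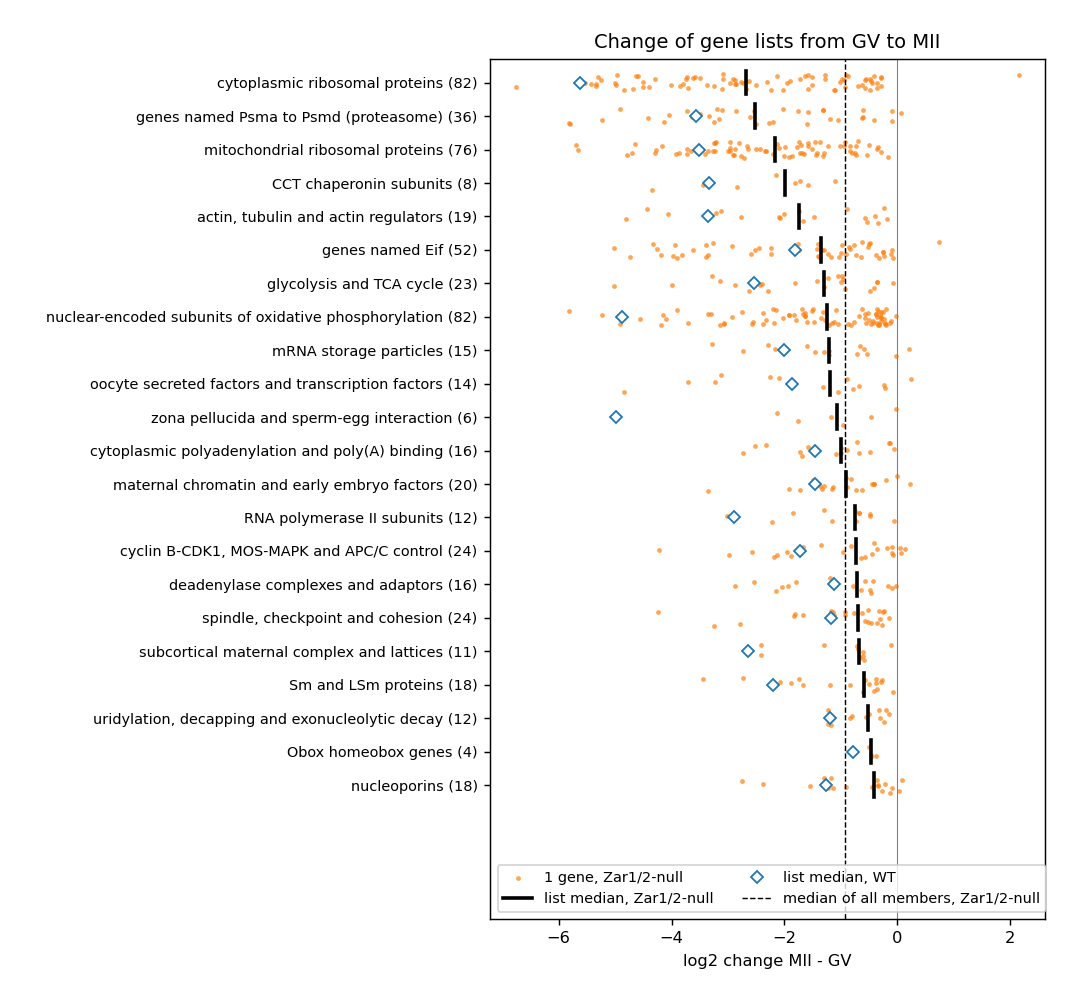
Log2 change from GV to MII of the genes of 22 lists, 1 orange point per gene in Zar1/2-null oocytes, with the list median as a black bar and the WT list median as an open diamond. The dashed line is the Zar1/2-null median over all 9455 genes, -0.93. The list labelled uridylation, decapping and exonucleolytic decay has no uridylation gene among its members, and the list labelled Sm and LSm proteins also holds other Snrp genes. The ribosomal and Psma to Psmd lists lie left of the dashed line and nucleoporins right of it. The distance between bar and diamond is widest for zona pellucida and oxidative phosphorylation genes.

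Energy metabolism was split. Of 82 genes with the symbols of nuclear-encoded oxidative phosphorylation subunits 58 fell, beside 75.4% of all members, with a median of -1.24. The ratio was under 3 for 49 and over 10 for 11, beside 8.1% of all members over 10. For complex IV, cytochrome c oxidase, 7 of 16 Cox genes fell, none over 10-fold, and the median ratio was 1.35-fold against 12.9-fold in WT. Cox6a1 had 284 and 311 FPKM at GV and 317 and 272 FPKM at MII (log2 change -0.02, standard error 0.20, adjusted p = 0.953) and Cox7c had 506 and 398 FPKM at GV and 460.1 and 366 FPKM at MII (log2 change -0.13, standard error 0.19, adjusted p = 0.562). Their stages overlapped in the null. Complex I had a median ratio of 2.61-fold over 36 genes, with 8 genes cleared over 10-fold, and complex V, the ATP synthase, of 3.17-fold over 17 genes. In WT the median ratios of complexes I and V were 57.8-fold and 26.8-fold. The interaction passed with a smaller fall in the null for 73 of the 82 genes, against 36.6% of all members, and with a larger fall for none. The whole list stood -0.31 from the median of all members with the ERCC factors and 0.12 without them, so its place relative to that median depended on the scaling.

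Enzymes of glycolysis and the citric acid cycle fell in 20 of 23 cases (median -1.30), beside 75.4% of all members. Tpi1, triosephosphate isomerase, had 41.9 and 65.0 FPKM at GV and 0.892 and 0.435 FPKM at MII (log2 change -5.01, standard error 0.21, adjusted p = 6.86e-09), a fall of 53.4-fold beside 52.7-fold in WT. Mdh2, the mitochondrial malate dehydrogenase, went from 88.7 to 4.62 FPKM and Aldoa, an aldolase, from 69.4 to 6.04 FPKM. Ldhb, a lactate dehydrogenase subunit and one of the most abundant transcripts of these oocytes, had 2436 and 3074 FPKM at GV and 2834 and 2372 FPKM at MII (log2 change -0.08, standard error 0.17, adjusted p = 0.706). In WT the Ldhb mean dropped from 2953 ± 357 to 265 ± 11.6 FPKM (interaction 3.39, adjusted p = 1.82e-06). Gapdh fell, with a log2 change of -0.95 (adjusted p = 8.26e-05), and its change without the factors was 0.06.

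Zona pellucida and sperm-egg interaction genes fell in 4 of 6 cases in Zar1/2-null oocytes (median -1.07), beside 75.4% of all members. No ratio passed 10, beside 8.1% of all members, and 6 genes are too few to read a difference from this. The zona pellucida is the glycoprotein coat that the growing oocyte secretes. Zp3 had 1386 and 1984 FPKM in the GV libraries and 839 and 639 FPKM in the MII libraries (log2 change -1.18, standard error 0.20, adjusted p = 0.000245). Zp2 had 1169 and 1427 FPKM at GV and 691 and 633 FPKM at MII (log2 change -0.96, standard error 0.18, adjusted p = 0.000591), and Zp1 had 366 and 581 FPKM at GV and 342 and 328 FPKM at MII (log2 change -0.46, standard error 0.24, adjusted p = 0.104). The falls of Zp3 and Zp2 were 2.28-fold and 1.96-fold, and in WT 108-fold and 35.5-fold. Interactions were 4.23, 4.14 and 5.49 for Zp1, Zp2 and Zp3 (adjusted p = 3.53e-06, 5.28e-07 and 1.19e-07). Without the ERCC factors the changes of Zp1 and Zp2 were 0.60 and 0.10, above 0. Cd9, the tetraspanin of the egg membrane needed for sperm fusion, had 118 and 140.2 FPKM at GV and 40.3 and 20.3 FPKM at MII (log2 change -2.13, adjusted p = 2.42e-05). Folr4, which encodes the sperm receptor JUNO, went from 261 to 75.8 FPKM (-1.76, adjusted p = 3.33e-06). Astl, the ovastacin protease that cleaves ZP2 after fertilisation, had 74.4 and 154 FPKM at GV and 107 and 104 FPKM at MII (log2 change -0.02, adjusted p = 0.958). All 6 members of the list had a smaller fall in the null than in WT by the interaction, beside 36.6% of all members.

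The subcortical maternal complex is a protein assembly under the egg membrane. Of 11 genes of this complex, the lattices and other oocyte NLRP proteins 9 fell, beside 75.4% of all members. The median was -0.68 and the ratio was under 3 for 9. Some of the NLRP genes, such as Nlrp9b, may lie outside the complex. Padi6, which is needed for the cytoplasmic lattices, had 717 and 1019 FPKM at GV and 533 and 548 FPKM at MII (log2 change -0.66, standard error 0.24, adjusted p = 0.0273), and Nlrp5, also called Mater, had 177 and 165 FPKM at GV and 105 and 119 FPKM at MII (log2 change -0.60, adjusted p = 0.00849). Ooep went from 1813 to 1142 FPKM and Tle6 from 389 to 228 FPKM, with WT log2 changes of -4.36 and -5.19. Nlrp9b was cleared more, with 87.4 and 91.1 FPKM at GV and 16.8 and 15 FPKM at MII (log2 change -2.42, adjusted p = 7.24e-07), and so was Nlrp2, from 104 to 18.5 FPKM. Zbed3, a member of the complex, had 946 and 1088 FPKM at GV and 829 and 1073 FPKM at MII (log2 change -0.11, adjusted p = 0.635). Without the ERCC factors Padi6 and Nlrp5 had changes of 0.40 and 0.45.

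Of 14 secreted factors and transcription factors of the oocyte 11 fell (median -1.19), where 75.4% of all members fell. Nobox, a homeobox factor of folliculogenesis, had 228 and 369 FPKM in the GV libraries and 25.5 and 17.6 FPKM in the MII libraries (log2 change -3.71, standard error 0.31, adjusted p = 8.59e-07). Lhx8 went from 59.7 to 5.48 FPKM and Figla, which drives the zona genes, from 74.0 to 17.1 FPKM (log2 changes -3.23 and -2.10). Fgf8, a growth factor for cumulus cells, had 94 and 137 FPKM at GV and 3.31 and 2.72 FPKM at MII (log2 change -4.84, adjusted p = 3.79e-09), and Gja4, the connexin of the oocyte gap junction, went from 278 to 30.6 FPKM. Gdf9, a TGF-β family ligand, had 1252 and 1796 FPKM at GV and 1314 and 1238 FPKM at MII (log2 change -0.23, standard error 0.19, adjusted p = 0.297), and its libraries overlapped. Bmp15, its relative, had 778 and 796 FPKM at GV and 434 and 476 FPKM at MII (log2 change -0.79, standard error 0.18, adjusted p = 0.00259), a fall of 1.73-fold. The interactions of Gdf9 and Bmp15 were 1.31 and 1.20 (adjusted p = 0.00396 and 0.00512).

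Of 20 maternal chromatin and early embryo factors 15 fell, near the 75.4% of all members, and the median of -0.90 lay next to the -0.93 of all members. Zfp57, a zinc finger protein that protects genomic imprints, had 321 and 438 FPKM at GV and 38.6 and 33.0 FPKM at MII (log2 change -3.36, standard error 0.20, adjusted p = 6.05e-08), and its fall of 10.6-fold stood beside 10.8-fold in WT (interaction 0.08, adjusted p = 0.848). Setdb1 and Eed, of the H3K9 and H3K27 methylation machinery, had log2 changes of -1.91 and -1.72, close to -1.82 and -1.55 in WT. H1foo, the oocyte linker histone, had 2985 and 3874 FPKM at GV and 3254 and 2672 FPKM at MII (log2 change -0.21, adjusted p = 0.328), and Dppa3, which guards maternal DNA methylation, had 2245 and 1832 FPKM at GV and 1713 and 1349 FPKM at MII (log2 change -0.42, adjusted p = 0.0885). Tet3, which oxidises 5-methylcytosine in the zygote, went from 29 to 28.9 FPKM and did not pass the test. Dnmt3l, the cofactor of de novo methylation, had 42.7 and 65.9 FPKM at GV and 64.4 and 60.5 FPKM at MII (log2 change 0.23, adjusted p = 0.456) against 58.4 ± 4.55 to 7.36 ± 3.12 FPKM in WT. Of 4 Obox homeobox genes 1 fell, and the changes lay between -0.51 and -0.37.

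Of 15 genes of mRNA storage particles 13 fell (median -1.21), beside 75.4% of all members. Ybx2, which encodes the RNA-binding protein MSY2, had 42.0 and 27.2 FPKM at GV and 11.6 and 11.9 FPKM at MII (log2 change -1.45, standard error 0.22, adjusted p = 0.000114), a fall of 2.95-fold beside 29.5-fold in WT (interaction 2.63, adjusted p = 8.2e-05). Patl2 went from 31.0 to 5.38 FPKM and Csda, listed for Ybx3, from 89.4 to 12.2 FPKM. Lsm14a had means of 55.6 and 54.1 FPKM (adjusted p = 0.864). The residual Zar1l signal fell 17.0-fold (log2 change -3.28, standard error 0.19, adjusted p = 4.33e-08), while Zar1 had a log2 change of 0.21 (adjusted p = 0.365) with overlapping libraries and fell 5.53-fold in WT (interaction 2.66, adjusted p = 3e-05).

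Among 16 genes of cytoplasmic polyadenylation and poly(A) binding 13 fell (median -1.0), beside 75.4% of all members. Cpeb1, which binds the CPE, had 136 and 142 FPKM in the GV libraries and 29.3 and 24.8 FPKM in the MII libraries (log2 change -2.32, standard error 0.15, adjusted p = 1.18e-07). It fell 5.13-fold in the null and 16.2-fold in WT (interaction 1.56, adjusted p = 0.000252). Dazl, a translational activator that acts with CPEB1, had 111 and 131 FPKM at GV and 33.0 and 47.1 FPKM at MII (log2 change -1.59, standard error 0.20, adjusted p = 2.13e-05), and fell 3.02-fold beside 2.22-fold in WT (interaction -0.44, adjusted p = 0.227). Cpsf4, of the complex that reads the polyadenylation signal, fell 11.3-fold, and Eif4e, the cap-binding protein, went from 160.4 to 27.3 FPKM. Papd4, the cytoplasmic poly(A) polymerase, had 21.6 and 26.0 FPKM at GV and 22.3 and 23.2 FPKM at MII (log2 change -0.05, adjusted p = 0.77). Paip2, an inhibitor of poly(A)-binding protein, went from 395 to 248 FPKM in the null with a log2 change of -0.67, and had one of -6.61 in WT (interaction 5.93, adjusted p = 3.67e-08).

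Of 16 deadenylase genes 12 fell (median -0.71), a share of 75% beside 75.4% of all members, and none fell over 10-fold, beside 8.1% of all members. The catalytic subunit Cnot7 had 93.3 and 118 FPKM at GV and 101 and 96.3 FPKM at MII (log2 change -0.09, standard error 0.21, adjusted p = 0.712), Cnot6l had 74.2 and 55.3 FPKM at GV and 45.9 and 45.9 FPKM at MII (log2 change -0.47, standard error 0.16, adjusted p = 0.0213) and Btg4 had 1699 and 1853 FPKM at GV and 1436 and 1124 FPKM at MII (log2 change -0.48, standard error 0.22, adjusted p = 0.0692). For these 3 the WT log2 changes were -0.36, -0.77 and -0.69, and no interaction passed (adjusted p = 0.512, 0.322 and 0.617). Among scaffold and accessory subunits, Cnot1 had a log2 change of -1.94, Cnot2 of -2.05 and Cnot10 of -2.54, with Cnot10 going from 11.6 to 1.18 FPKM. Pan2, of the PAN2-PAN3 deadenylase, had 13.4 and 10.7 FPKM at GV and 11.3 and 12.3 FPKM at MII (log2 change -0.02, adjusted p = 0.914). Of 12 genes for decapping, exonucleolytic decay and RNA binding (Ythdf1, Ythdf2, Ythdf3 and Zfp36) 7 fell, beside 75.4% of all members. None fell over 3-fold by the ratio of means. The uridylation genes of this list did not reach 1 FPKM in these 4 libraries and were not counted. Ythdf2, a reader of N6-methyladenosine, had 15.2 and 14.2 FPKM at GV and 6.34 and 5.57 FPKM at MII (log2 change -1.17, adjusted p = 2.81e-05), and Edc4, a decapping scaffold, had 14.4 and 11.9 FPKM at GV and 10.6 and 11.9 FPKM at MII (log2 change -0.20, adjusted p = 0.372). The median of the deadenylase list stood 0.22 above that of all members with the factors and 0.51 above it without them.

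Of 24 genes of cyclin B-CDK1, MOS-MAPK and APC/C control 15 fell (median -0.73), beside 75.4% of all members. Cdk1, the kinase that drives M phase, had 44.2 and 52.2 FPKM in the GV libraries and 2.14 and 1.20 FPKM in the MII libraries (log2 change -4.22, standard error 0.21, adjusted p = 2.04e-08), a fall of 28.9-fold. Plk1, another mitotic kinase, had 49.6 and 67.5 FPKM at GV and 15.9 and 19.2 FPKM at MII (log2 change -1.67, standard error 0.19, adjusted p = 1.28e-05). Fbxo5, the APC/C inhibitor EMI1, went from 59.3 to 9.0 FPKM, and Cdc25c, a phosphatase that activates CDK1, from 9.42 to 0.309 FPKM. Ccnb1, cyclin B1, had 379 and 514 FPKM at GV and 343 and 341 FPKM at MII (log2 change -0.37, standard error 0.21, adjusted p = 0.145), so its GV replicates differed by more than the MII replicates did. Wee2, the oocyte kinase that inhibits CDK1, had 130.3 and 187 FPKM at GV and 101 and 98.8 FPKM at MII (log2 change -0.64, standard error 0.20, adjusted p = 0.0127). Mos, the kinase at the head of the MAPK cascade in oocytes, had 341 and 457 FPKM at GV and 389 and 351 FPKM at MII (log2 change -0.09, standard error 0.18, adjusted p = 0.645), and Cdc20, the APC/C activator, had 42.3 and 76.3 FPKM at GV and 65.4 and 60.8 FPKM at MII (log2 change 0.15, adjusted p = 0.593).

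Mos fell 2.87-fold in WT (interaction 1.42, adjusted p = 0.00137). Mapk3, which encodes ERK1, had 111 and 114 FPKM in the null and went from 150.1 to 3.67 FPKM in WT (interaction 5.09, adjusted p = 8.37e-07). The cyclin B genes Ccnb1 and Ccnb2 had interactions of 0.70 (adjusted p = 0.0904) and 0.55 (adjusted p = 0.0524).

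Of 24 spindle, checkpoint and cohesion genes 18 fell, next to 75.4% of all members (median -0.69 against -0.93), and the ratio was under 3 for 18. Tacc3, a spindle protein recruited by Aurora A, had 254 and 327 FPKM at GV and 17.3 and 11.9 FPKM at MII (log2 change -4.23, standard error 0.24, adjusted p = 4.81e-08), a fall of 19.9-fold. The checkpoint kinases Ttk and Bub1 had log2 changes of -3.24 and -2.79, and Aurka, Aurora A, of -1.81. Bub1b had 167 and 143 FPKM at GV and 129 and 151 FPKM at MII (log2 change -0.14, adjusted p = 0.418) and Mad2l1 164 and 133 FPKM (adjusted p = 0.196). Tpx2, an activator of Aurora A, had 25.3 and 25.3 FPKM at GV and 17.3 and 17.3 FPKM at MII (log2 change -0.52, standard error 0.14, adjusted p = 0.00668). Birc5, survivin of the chromosomal passenger complex, had 772 and 769 FPKM at GV and 627 and 501 FPKM at MII (log2 change -0.46, standard error 0.17, adjusted p = 0.0316) and a WT mean that dropped from 1097 ± 146 to 54.6 ± 3.92 FPKM (interaction 3.84, adjusted p = 5.53e-07). Pttg1, securin, had means of 2846 and 2265 FPKM (adjusted p = 0.0855).

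**Figure D3:**
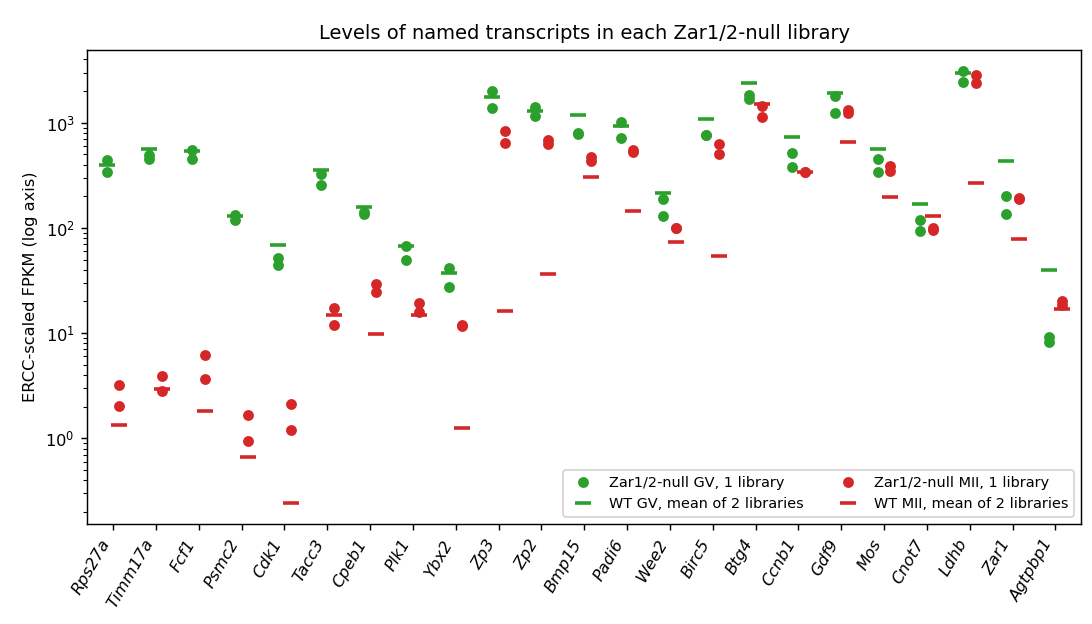
ERCC-scaled FPKM (log axis) of 23 named transcripts in each of the 2 Zar1/2-null GV libraries (green points) and 2 MII libraries (red points), with the WT means of 2 libraries as horizontal bars in the same colours. The GV and MII points are over 10-fold apart from Rps27a to Tacc3 and overlap from Gdf9 to Zar1. Only for Agtpbp1 do both red points lie above both green points.

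Of 18 nucleoporin genes 10 fell, beside 75.4% of all members, with a median of -0.40. Nup62 had 21.9 and 22.7 FPKM at GV and 21.8 and 25.7 FPKM at MII. Of 18 genes for Sm, LSm and other proteins of the spliceosomal particles 10 fell (median -0.60). The list was taken by symbol and includes Snrpa, Snrpa1, Snrpb2 and Snrpc, which encode no Sm or LSm protein. Snrpc had 19.3 and 17.8 FPKM at GV and 0.641 and 0.961 FPKM at MII (log2 change -3.44, adjusted p = 3.55e-07) and Lsm4 had 26.3 and 28.9 FPKM at GV and 28.2 and 24.2 FPKM at MII (log2 change -0.08, adjusted p = 0.635), although Lsm4 fell 42.0-fold in WT. Of 12 RNA polymerase II subunits 11 fell (median -0.74). Polr2k had 565 and 444 FPKM at GV and 81.8 and 45.5 FPKM at MII (log2 change -3.02, adjusted p = 2.52e-06) and Polr2c had 267 and 323 FPKM at GV and 305 and 259 FPKM at MII (log2 change -0.06, adjusted p = 0.739). The interaction passed with a smaller fall in the null for 11 of the 12, beside 36.6% of all members.

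The remaining families had medians between -1.34 and -0.77. For kinesins the median was -0.98 over 19 genes, for Rab GTPases -1.07 over 33, for USP deubiquitinases -0.89 over 39, for F-box proteins -1.05 over 59, for ubiquitin-conjugating enzymes -1.34 over 33, for zinc finger genes named Zfp -1.12 over 182 and for solute carriers -0.77 over 123. Fbxw15, an oocyte F-box protein, had 960.1 and 970.3 FPKM at GV and 58.9 and 44.2 FPKM at MII (log2 change -4.21, adjusted p = 1.53e-08) and Fbxl6 had 76.5 and 154 FPKM at GV and 124 and 103 FPKM at MII (log2 change 0.05, adjusted p = 0.881). Usp39, a splicing factor of the deubiquitinase family, fell 34.3-fold, and Usp21 had 11.2 and 16.8 FPKM at GV and 12.1 and 14.7 FPKM at MII. Among the 6 oocyte Oas1 genes (median -1.33), Oas1h had 512 and 554 FPKM at GV and 82.7 and 56.2 FPKM at MII (log2 change -2.95, adjusted p = 1.6e-07) and Oas1d 474 and 792 FPKM at GV and 650.3 and 559 FPKM at MII (log2 change -0.02, adjusted p = 0.935).

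Rises were few and small. None of the 21 genes called higher was a small RNA gene, and all but 1 had a log2 change between 0.34 and 1.06. Of the 21 genes, 5 had at least 10 FPKM at MII. Agtpbp1, a carboxypeptidase that removes glutamates from tubulin, had 8.28 and 9.18 FPKM in the GV libraries and 20.0 and 18.6 FPKM in the MII libraries (log2 change 1.06, standard error 0.25, adjusted p = 0.00265). In WT it went the other way, from 39.5 ± 17.9 to 17.0 ± 1.40 FPKM (interaction 2.16, adjusted p = 0.000868). The other 4 were D4Bwg0951e, with 16.8 and 23.6 FPKM at GV and 41.9 and 26.6 FPKM at MII, Mt4, a metallothionein, with 7.93 and 6.23 FPKM at GV and 12.8 and 10.1 FPKM at MII, St3gal5, a sialyltransferase of ganglioside synthesis, with 6.89 and 8.50 FPKM at GV and 11.3 and 10.5 FPKM at MII, and Heatr2, a dynein assembly factor, with 16.1 and 18.1 FPKM at GV and 22.1 and 23.1 FPKM at MII. Their MII libraries lay above their GV libraries without overlap, and their adjusted p-values were 0.0185, 0.0265, 0.0274 and 0.0257. For all 5 genes the lack of overlap and an adjusted p under 0.05 were conditions of the choice, so they add no support.

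By the ratio of means 13 genes (0.137%) were over 3-fold higher, and 12 of them were small RNA genes, none of which limma called. The remaining gene, Gm19784, lay outside the rule for named genes and was picked after its values were seen. It had 0.0789 and 0.225 FPKM at GV and 11.5 and 6.35 FPKM at MII (log2 change 3.06, adjusted p = 3.34e-06). In WT its means were 0.0747 and 0.00737 FPKM.

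At GV the 5 highest were Gm15698, E330017A01Rik, Mir762, H1foo and Oosp1, and at MII H1foo, E330017A01Rik, Oosp1, Ldhb and Mir762. Oosp1, an oocyte-secreted protein, had 3284 and 3002 FPKM at GV and 2997 and 2446 FPKM at MII (log2 change -0.21, adjusted p = 0.382). Gm15698 had 5559 and 5310.2 FPKM at GV and 2209 and 1872 FPKM at MII (log2 change -1.42, standard error 0.16, adjusted p = 9.55e-06). E330017A01Rik had 4407 and 3694 FPKM at GV and 3112 and 2586 FPKM at MII (log2 change -0.51, standard error 0.19, adjusted p = 0.0357), whereas its WT mean dropped from 3878 ± 615 to 23.6 ± 3.81 FPKM. Mir762 is a microRNA gene read here through polyadenylated RNA, and its GV libraries were 2824 and 4726 FPKM.

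Compared with WT, clearance without ZAR1 and ZAR2 was smaller for the median gene on the ERCC scale. The median interaction, the null change minus the WT change, was 0.52 with the factors, 0.014 without them and -0.11 with median scaling. In WT, 9087 of the 9455 genes fell (96.1%), and the median log2 change was -1.52. Over the 9455 genes the changes of the genotypes had a Pearson correlation of 0.717 and a Spearman correlation of 0.734. These describe genes within libraries that share a protocol and a scaling rule, and genes are not independent replicates. The interaction passed with a smaller fall in the null for 3462 genes (36.6%) and with a larger fall for 71 (0.751%). This balance depended on the scaling and was 1608 to 720 without the ERCC factors and 1545 to 1209 with median scaling, and 1465 and 58 genes passed under all 3.

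Of the 1786 members with a ratio over 10 in WT, 701 (39.2%) also had one in the null, 712 (39.9%) had a ratio between 3 and 10 and 373 (20.9%) one under 3. Levels at GV had medians of 38.7, 19.8 and 50.5 FPKM in Zar1/2-null GV oocytes and 50.5, 26.1 and 64.8 FPKM in WT GV oocytes. At MII the medians were 1.86, 3.45 and 28.6 FPKM in the null and 1.38, 1.22 and 1.59 FPKM in WT. The classes were made from these falls, so the values describe them and test nothing. In the annotation of the mm9 build, the class under 3 had the shortest transcripts, with a median of 1043 bases against 1620 and 1703 bases in the others. It held 23 of the 73 ribosomal protein genes and 35 of the 64 oxidative phosphorylation genes that WT cleared over 10-fold, beside 2 of 20 genes with Psma to Psmd symbols and 2 of 18 with Eif symbols.

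**Figure D4:**
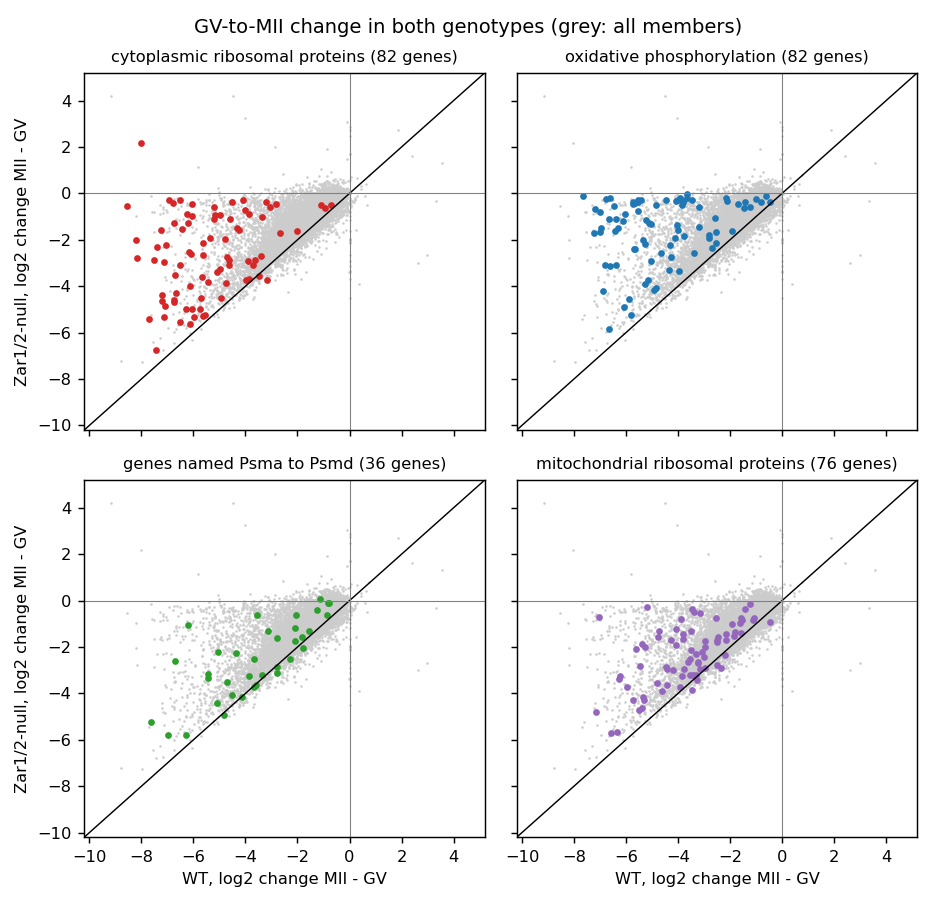
Log2 change from GV to MII in WT (x axis) and Zar1/2-null oocytes (y axis) for all 9455 genes in grey, with 4 gene lists in colour and the line of equal change. Oxidative phosphorylation genes lie mostly above the line, and many genes named Psma to Psmd lie next to the line.

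A ratio over 10 in the null without one in WT was found in 65 genes. Their median level in WT GV oocytes was 9.995 FPKM, so with the floor of 1 FPKM many could not pass 10 in WT. The interaction passed with a larger fall in the null for 13 of the 65, beside 0.751% of all members. The 65 were chosen by the same falls that the interaction compares, so this count adds no support. The 3 named genes D10Wsu102e, Txn1 and Btf3 had a larger fall in the null by the interaction, and Btf3 is not among the 65. D10Wsu102e had 164 and 175 FPKM at GV and 13.7 and 14.2 FPKM at MII and fell 12.2-fold, beside 6.38-fold in WT (interaction -0.86, adjusted p = 0.0144). Txn1, thioredoxin, had 126 and 113 FPKM at GV and 13.3 and 9.83 FPKM at MII and fell 10.3-fold, beside 6.24-fold (interaction -0.69, adjusted p = 0.0478). Btf3, a subunit of the nascent polypeptide-associated complex, had 676 and 615 FPKM at GV and 112 and 98.1 FPKM at MII and fell 6.14-fold, beside 3.35-fold (interaction -0.87, adjusted p = 0.0149). They were all that the naming rule found in this direction. At the other end were Rps27, Rpl39, Cox7c, E330017A01Rik and Chchd2, a mitochondrial protein with 216 and 203 FPKM at GV and 141 and 101 FPKM at MII in the null and a WT mean going from 312 ± 31.3 to 0.629 ± 0.0126 FPKM (interaction 6.77, adjusted p = 1.95e-08).

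Sequence features that the rule did not use varied with the size of the fall. A coding transcript with the same symbol was found for 94.4% of the members. Over the 3448 genes with at least 10 FPKM at GV and a 3' UTR of at least 100 bases, the number of CPE motifs (TTTTAT or TTTTAAT) in the last 100 bases varied with the fall. The median log2 change was -1.48 in 2709 genes with no motif, -0.75 in 621 with 1, -0.49 in 103 with 2 and -0.22 in 15 with 3 or more. In WT the medians were -2.48, -1.41, -1.14 and -0.86. The median of the interaction was 0.62, 0.57, 0.53 and 0.51 in the same order. Without the ERCC factors the null medians were -0.53, 0.27, 0.56 and 0.79. A motif was present in 13.4% of the 597 genes with a ratio over 10, in 15.2% of those with a ratio of 3 to 10, in 21.0% with a ratio of 1.5 to 3 and in 33.3% of the 963 below that. The direction was not particular to the CPE. By ATTTA motifs in the whole 3' UTR (0, 1, 2 and 3 or more), the null medians were -1.59, -1.30, -1.20 and -1.11. The WT medians were -3.01, -2.20, -1.75 and -1.52.

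The medians were closer to 0 with a CPE motif in each class of 3' UTR length. With 3' UTRs of 100 to 404 bases the median log2 change in the null was -1.65 without and -0.81 with a motif, with 405 to 1088 bases -1.61 and -0.65, and with 1089 bases or more -1.21 and -0.66. The Spearman correlation of transcript length with the change was 0.137 in the null and 0.390 in WT over 3846 genes, given as a description. In 5 equal groups by transcript length the null medians were -1.40, -1.87, -1.47, -1.31 and -0.97 and the WT medians -3.68, -3.04, -2.25, -1.87 and -1.45, from short to long. For coding GC content the correlations were -0.006 in the null and -0.238 in WT. Of the lists, deadenylase genes had a CPE motif in 7 of 16 cases, spindle genes in 8 of 21 and nucleoporins in 6 of 16, while genes with Psma to Psmd symbols had one in 2 of 29 and CCT genes in 0 of 7. Other lists did not follow this order. The decay list (median -0.52) had a motif in 1 of 11 and the list with Sm and LSm genes (median -0.60) in 2 of 17. Storage genes (median -1.21) had one in 4 of 14 and cytoplasmic ribosomal protein genes (median -2.68) in 6 of 34. Over all members with a 3' UTR of at least 100 bases the share was 20.4%.

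**Figure D5:**
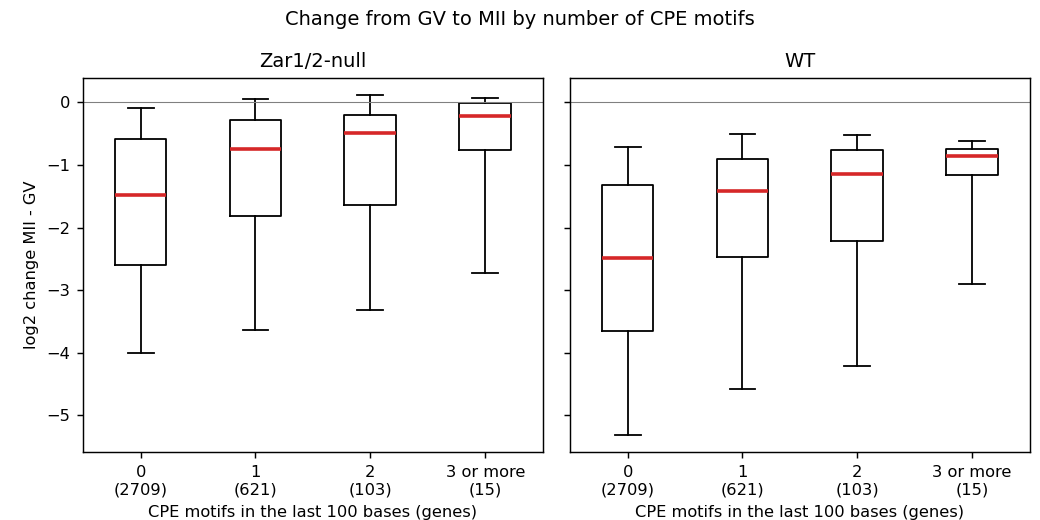
Log2 change from GV to MII in Zar1/2-null (left) and WT oocytes (right) by the number of CPE motifs in the last 100 bases of the 3' UTR, for 3448 genes with at least 10 FPKM in Zar1/2-null GV oocytes. Boxes span the middle 50% of genes with the median in red, whiskers reach the 5th and 95th percentiles, and numbers of genes stand in brackets. Both medians move toward 0 with more motifs, in the null from -1.48 to -0.22.

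The following 30-base windows, all from the 3' UTR in the last exon, show the end of named messages on the sense strand of mm9, from the 5' side up to the last base of the last polyadenylation signal (AATAAA or ATTAAA) within 50 bases of the annotated transcript end. Capitals mark the signal and any CPE motif. Such a signal was found in 6349 members, and 8.21% of their windows held a CPE motif. The first set are messages that did not pass the test for a change and hold a CPE motif within the window: Cnot7, Papd4, Bub1b, Gdf9 and Pan2.
Cnot7 (chr8:41578395-41578424, minus strand): aagtcttaaggtacaTTTTATatcAATAAA
Papd4 (chr13:93917377-93917406, minus strand): gcataTTTTATtatgacatttcctAATAAA
Bub1b (chr2:118467283-118467312, plus strand): ctctcctttcactgtgtaTTTTATAATAAA
Gdf9 (chr11:53251360-53251389, plus strand): tgctgtggTTTTATgtgacggaagAATAAA
Pan2 (chr10:127758357-127758386, plus strand): tgcttaaaacagcatgTTTTATaaAATAAA

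The second set are messages that fell over 20-fold and have no CPE motif in the last 100 bases: Timm17a, Bud31, Psmb1 and Cct5.
Timm17a (chr1:137198140-137198169, minus strand): tgttttgtgtacagttattcagacAATAAA
Bud31 (chr5:145908898-145908927, plus strand): tgttcaccagctgagatctgtaaaAATAAA
Psmb1 (chr17:15612694-15612723, minus strand): cacatacaaatgtatgtaatgaaaAATAAA
Cct5 (chr15:31520584-31520613, minus strand): tcctctcacagctgtagatgctggAATAAA

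In the third set Cox6a1, Ldhb and Intu go against the trend. Cox6a1 and Ldhb did not pass the test for a change and have no motif in the last 100 bases, and Intu fell 94.2-fold although a CPE motif lies there, outside the window. Wee2, given beside them, holds a motif in its window and fell 1.59-fold. Its log2 change of -0.64 lay between the medians of genes with 1 and 2 motifs, -0.75 and -0.49.
Cox6a1 (chr5:115795676-115795705, minus strand): ctgcttgtaagaggagatgccttaAATAAA
Ldhb (chr6:142438787-142438816, minus strand): gtttgcactaggagctcctgatcaAATAAA
Intu (chr3:40508652-40508681, plus strand): ttttctacattatccagagttttaAATAAA
Wee2 (chr6:40416763-40416792, plus strand): cataTTTTAATccagatcattgtaAATAAA

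These examples were picked after their values were seen. Oocytes may use other transcript ends than the annotation does, and a match of letters is not evidence of binding.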

How the data were processed

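Zar1/2-null and WT oocytes at 3 stages were profiled by Smart-seq2 in 12 libraries of 10 oocytes each, of which the 4 Zar1/2-null GV and MII libraries and the WT libraries of these stages are reported. The authors deposited FPKM values scaled by the ERCC spike-in, which they had computed over UCSC gene models with Cufflinks 2.2.1 from 50 bp reads that TopHat 2.1.1 placed at a single site of mm9. The library factors were recovered from the digits of these values. The depth per value is unknown, since no counts were used here.

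Values were transformed to log2(FPKM + 1). The 11502 genes that reached 1 FPKM in any of the 12 libraries were fitted in limma 3.58.1 (R 4.3.3) with a mean for each of 6 groups and a trend in eBayes, with Benjamini-Hochberg adjustment over the 11502 genes and a threshold of 0.05. The contrasts were MII minus GV in each genotype and their difference, the interaction. Ratios used group means floored at 1 FPKM. Coding transcripts, 3' UTRs and sequences came from GENCODE vM1 on mm9, matched by symbol. Other software was numpy 2.4.6, pandas 2.3.3, scipy 1.17.1 and matplotlib 3.10.9.

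Named genes were a fixed set of oocyte genes, the 10 largest falls and up to 10 largest rises among called genes with at least 10 FPKM and no overlap between stages (small RNA and Gm genes left out), the 5 most abundant genes of each stage, up to 5 genes each way with the largest interaction and at least 50 FPKM at GV in both genotypes, and the lowest and highest member of each gene list with at least 10 FPKM. Other list members given with values were chosen after their values were seen. The members and lists were chosen with earlier results of these data known. On simulated data for the Zar1/2-null comparison (11502 genes, 200 changed), the fit recovered 100% of 10-fold and 97% of 3-fold changes. The changed genes were drawn from those above 10 FPKM in Zar1/2-null GV oocytes, and all other genes were held unchanged in both genotypes. Recovery in lower genes, or where most genes fall as they did here, was not tested. Alternatives were other scalings, pseudocounts, filters, a replicate block, fewer libraries in the fit and eBayes without a trend. The value of 1 gene of the MAPK cascade is not reported here, so the genes of that cascade named in the text are not all of its members.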

Additional observations from a re-analysis of the deposited data

Results flagged for a closer look

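The change from GV to MII differed between the genotypes by limma's interaction with an adjusted p of at most 0.05 for 3462 genes with a smaller fall and 71 genes with a larger fall in Zar1/2-null than in WT oocytes. The named genes among them follow with their interaction on the log2 scale.

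Positive values, for a smaller fall in the null, were found for the target genes (Zar1 2.66 and Zar1l 3.46), for genes of the oocyte coat, secretion and lattices (Zp1 4.23, Zp2 4.14, Zp3 5.49, Gdf9 1.31, Bmp15 1.2, Nlrp5 2.03 and Padi6 2.08) and for RNA-binding and cell cycle genes (Ybx2 2.63, Cpeb1 1.56, Wee2 0.87, Mos 1.42 and Birc5 3.84). Actb and Gapdh, often used as reference genes, had 1.22 and 1.17. The values were highest for Rps27 10.19, Rpl39 8, Cox7c 7.52, E330017A01Rik 6.79 and Chchd2 6.77 among genes with at least 50 FPKM at GV. The value of Rps27 rests on a Zar1/2-null GV library listed at 0.716 FPKM beside one at 383 FPKM.

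Negative values, for a larger fall in the null, were Btf3 -0.87, D10Wsu102e -0.86 and Txn1 -0.69. They were 3 of the 730 genes that passed at this level in both GV groups.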

How the results depend on the processing

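Counts and the median depended on the scaling, the pseudocount and the filter. Without the ERCC factors limma called 4195 genes lower and 2122 higher, the ratio passed 10 for 423 genes, 3 for 2102 and, upward, 3 for 55, the interaction passed for 1608 genes with a smaller and 720 with a larger fall in the null, and the median was -0.33. With median scaling these values were 3184, 3581, 247, 1496, 396, 1545, 1209 and 0.093. With a pseudocount and floor of 0.1 FPKM 1480 genes passed 10-fold and the median was -1.38, and with 5 FPKM 301 passed 10-fold, 1547 passed 3-fold, 8 passed 3-fold upward and the median was -0.46. Restricting the test to genes whose mean reached 5 FPKM left fewer genes, of which 4562 were lower, 11 were higher and 33 had a larger fall in the null, with a median of -1.20. Without small RNA genes 1 gene passed 3-fold upward.

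Leaving out 1 library at a time gave 6329 to 6773 genes lower, 13 to 78 higher (78 without Zar1/2-null GV replicate 2 and 13 without MII replicate 1), 684 to 859 over 10-fold, 6 to 18 over 3-fold upward (6 without Zar1/2-null MII replicate 1), 2260 to 3555 with a smaller fall (2260 without WT GV replicate 1) and 33 to 77 with a larger fall in the null. The last count was 40 and 33 without Zar1/2-null MII replicate 1 and 2 and 37 and 36 without WT MII replicate 1 and 2. The lone library is assumed to vary like the other groups. Replicate numbers did not pair the libraries: deviations of equal numbers correlated at 0.025 between Zar1/2-null GV and MII and between -0.12 and 0.16 over 15 pairs of groups. With the replicate block 7292 genes were lower and 28 higher, 3624 and 82 passed the interaction, and no count moved by over 1.5 times.

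Of 779 alternative values for changes of named genes, 662 kept direction and side of the threshold and 61 changed sign. Without the ERCC factors the log2 changes that turned were Btg4 0.58, Ccnb1 0.69, Wee2 0.41, Tpx2 0.50, Mos 0.97, Cnot7 0.96, Cnot6l 0.58, Zp1 0.60, Zp2 0.10, Gdf9 0.83, Bmp15 0.27, Nlrp5 0.45, Padi6 0.40, Dppa3 0.65, Gapdh 0.060, Birc5 0.60, E330017A01Rik 0.55, Mir762 0.52, H1foo 0.86, Oosp1 0.85, Ldhb 0.98, Rpl39 0.51, Cox7c 0.93 and Chchd2 0.25. With median scaling they were Btg4 1.08, Ccnb1 1.19, Wee2 0.91, Tpx2 0.99, Mos 1.46, Cnot7 1.46, Cnot6l 1.07, Ybx2 0.033, Zp1 1.10, Zp2 0.59, Zp3 0.38, Gdf9 1.33, Bmp15 0.77, Nlrp5 0.95, Padi6 0.90, Dppa3 1.14, Actb 0.031, Gapdh 0.55, Birc5 1.10, Gm15698 0.14, E330017A01Rik 1.05, Mir762 1.02, H1foo 1.35, Oosp1 1.35, Ldhb 1.48, Rpl39 1.01, Cox7c 1.43 and Chchd2 0.74. Interactions that turned were Btg4 -0.49, Tpx2 -0.23, Cnot7 -0.43, Cnot6l -0.40, Dppa3 -0.057 and Plk1 -0.25 without the factors and Btg4 -0.64, Ccnb1 -0.14, Tpx2 -0.38, Cnot7 -0.58, Cnot6l -0.55, Dppa3 -0.21 and Plk1 -0.40 with median scaling. With 1 library left out, changes ranged for Zar1 -0.086 to 0.50, Mos -0.31 to 0.12, Cnot7 -0.26 to 0.078, Gdf9 -0.49 to 0.027, Ldhb -0.25 to 0.090, Rps27 -1.74 to 6.07 and Cox7c -0.30 to 0.045, and interactions for Btg4 -0.0092 to 0.42 and Cnot7 -0.023 to 0.55. The causes were not tested. Exact counts were not available, so depth limits low genes to an unknown extent, and a value of 0 may be a failed estimate.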
